A study of Mus musculus with 12 samples.

Results

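Polycomb repressive complex 1 (PRC1) keeps developmental genes silent by attaching ubiquitin to histone H2A and by compacting chromatin. Its core is an E3 ubiquitin ligase made of RING1 or RNF2 together with a PCGF protein. The canonical form adds a CBX chromodomain protein, which reads the methyl mark left by PRC2, and a Polyhomeotic (PHC) protein, which can polymerise. In blood stem cells this complex is best known for repressing the Cdkn2a locus and for self-renewal. YY1 is a zinc-finger DNA-binding protein related to Drosophila PHO, which binds Polycomb response elements in the fly.

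The 10 PRC1 genes described here were taken from a list of complex members and found by gene symbol among 55487 listed genes. They are the ligase genes Rnf2 and Ring1, the PCGF genes Bmi1, Pcgf1 and Pcgf2, the CBX genes Cbx2, Cbx7 and Cbx8, the Polyhomeotic gene Phc1 and the SCM-family gene Scml2. All 10 passed the filter on low counts, which left 16649 genes tested. Pcgf2 and Scml2 passed it through the Yy1+/+ libraries, where they are high. RNA was measured in sorted mouse bone marrow LSK cells (Lin- Sca1+ c-Kit+), a population that holds stem and multipotent progenitor cells. The 12 libraries came from 4 Yy1-/- Smc3+/- samples, 4 Yy1-/- samples and 4 wild-type Yy1+/+ samples. Smc3 encodes a subunit of the cohesin ring, and by their labels both mutant genotypes lack both Yy1 alleles. The labels name no Cre driver, age, sex or batch, and do not say how many animals made a library, so p-values measure only the spread between these libraries.

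Depth was 38671354 to 69086104 expected counts per library. Yy1 mRNA was low but not absent in the libraries that carry the deletion: it stood at 0.772, 0.795, 4.45 and 0.944 CPM (counts scaled to library size) in the libraries labelled Yy1-/- Smc3+/-, at 0.407, 0.996, 5.01 and 12.2 CPM in Yy1-/- libraries, and at 33.9 to 41.3 CPM in Yy1+/+ libraries. Residual Yy1 reads were thus highest in Yy1-/- replicates 3 and 4 and in replicate 3 of the other deleted group. Smc3 mRNA was not lower where the Smc3 allele is labelled. It was at 254 to 344 CPM in the libraries labelled Yy1-/- Smc3+/-, at 199.8 to 306 CPM in Yy1-/- libraries and at 159.7 to 214 CPM in Yy1+/+ libraries. Against Yy1+/+, Smc3 rose in the libraries labelled Yy1-/- Smc3+/- (log2 fold change 0.76, edgeR adjusted p = 0.00254). It also rose in Yy1-/- libraries (0.53, edgeR adjusted p = 0.0167). Gene-level counts cannot show whether a deleted allele still gives reads, so they do not settle the Smc3 genotype. The group labelled Yy1-/- Smc3+/- is therefore named by its label throughout. Of the sort markers, Kit averaged 245 ± 87.5, 176 ± 69.8 and 769 ± 243 CPM in the libraries labelled Yy1-/- Smc3+/-, in Yy1-/- and in Yy1+/+ libraries (SD, n = 4 each), while Ly6a, which encodes Sca1, averaged 229.6 ± 78.5, 251 ± 88.1 and 187 ± 32.2 CPM. All 10 genes of a stem cell marker list fell in both comparisons with Yy1+/+. Their summed level ranged over 63.9 to 109 CPM in the libraries labelled Yy1-/- Smc3+/-, 46.0 to 98.2 CPM in Yy1-/- and 1083 to 1258 CPM in Yy1+/+ libraries. Of 8 monocyte and macrophage markers, 6 rose in the libraries labelled Yy1-/- Smc3+/- and 7 rose in Yy1-/- libraries, with summed levels of 378 to 643, 399 to 2175 and 143 to 380 CPM in the same order with Yy1+/+ last. Of 7 erythroid markers, 2 fell in the libraries labelled Yy1-/- Smc3+/- and 1 fell in Yy1-/- libraries, with summed levels of 2.28 to 219, 8.29 to 402 and 331 to 885 CPM in that order. Of 6 megakaryocyte markers, 2 and 3 fell in that order, with summed levels of 87.6 to 209.6, 158 to 196 and 173 to 202 CPM. Of 8 T and NK cell markers 7 were tested and 3 rose in each comparison, although their summed levels ran from 48.9 to 239.9, 39.7 to 175 and 127 to 268 CPM. Of 10 neutrophil and granulocyte progenitor markers, 0 fell and 1 rose in each comparison. Among all tested genes, 16.7% fell and 13.1% rose in the libraries labelled Yy1-/- Smc3+/-. In Yy1-/- libraries 18.8% fell and 16.3% rose. The erythroid counts are near these shares and are no result about that list. The Yy1-/- libraries were not alike in the monocyte and macrophage markers. Csf1r was at 495 and 534 CPM in replicates 1 and 2, against 43.2 and 73.9 CPM in replicates 3 and 4. Cd68 was at 342 and 336 CPM against 98.8 and 63.7 CPM. Means of Yy1-/- libraries thus cover unlike libraries, and a link to residual Yy1 was not tested. Fits without the 3 libraries with most residual Yy1 keep only Yy1-/- replicates 1 and 2. Residual Yy1 and these markers cannot be told apart there. In bulk samples, fewer cells of a type and less RNA per cell cannot be told apart, and the part of these marker shifts in the PRC1 values below was not tested.

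Most, but not all, of the 10 PRC1 genes fell in Yy1-/- LSK cells. In the main fit, fewer passed the threshold where the Smc3 allele is labelled too. In Yy1-/- libraries, 8 of the 10 fell against Yy1+/+ and 0 rose, where 35.2% of all tested genes changed (18.8% lower and 16.3% higher). In the libraries labelled Yy1-/- Smc3+/-, 5 of the 10 fell and 0 rose, where 29.9% of all genes changed (16.7% lower and 13.1% higher). This order of the 2 counts depends on the fit. With only the 2 genotypes compared in the fit, 6 fell in Yy1-/- libraries and 7 in the libraries labelled Yy1-/- Smc3+/-. Set directly against each other, the deleted groups differed past the threshold in 0 of the 10. The median log2 fold change of the 10 genes was -1.09 in Yy1-/- libraries, where the median of all genes was 0.0058. It was -0.81 in the libraries labelled Yy1-/- Smc3+/-, with 0.02 for all genes, and the fitted values of all 10 lay below 0 in both comparisons. Setting Scml2 at its bound gave the same median. The range of levels across libraries did not overlap with Yy1+/+ for 6 of the 10 in each comparison, against 17.5% of all genes lower without overlap in Yy1-/-, and 17.6% where the Smc3 allele is labelled too. Calls are adjusted p under 0.05 from edgeR's quasi-likelihood test with Benjamini-Hochberg adjustment over all genes. Both comparisons share the Yy1+/+ libraries, so their likeness is not independent evidence.

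**Figure D1:**
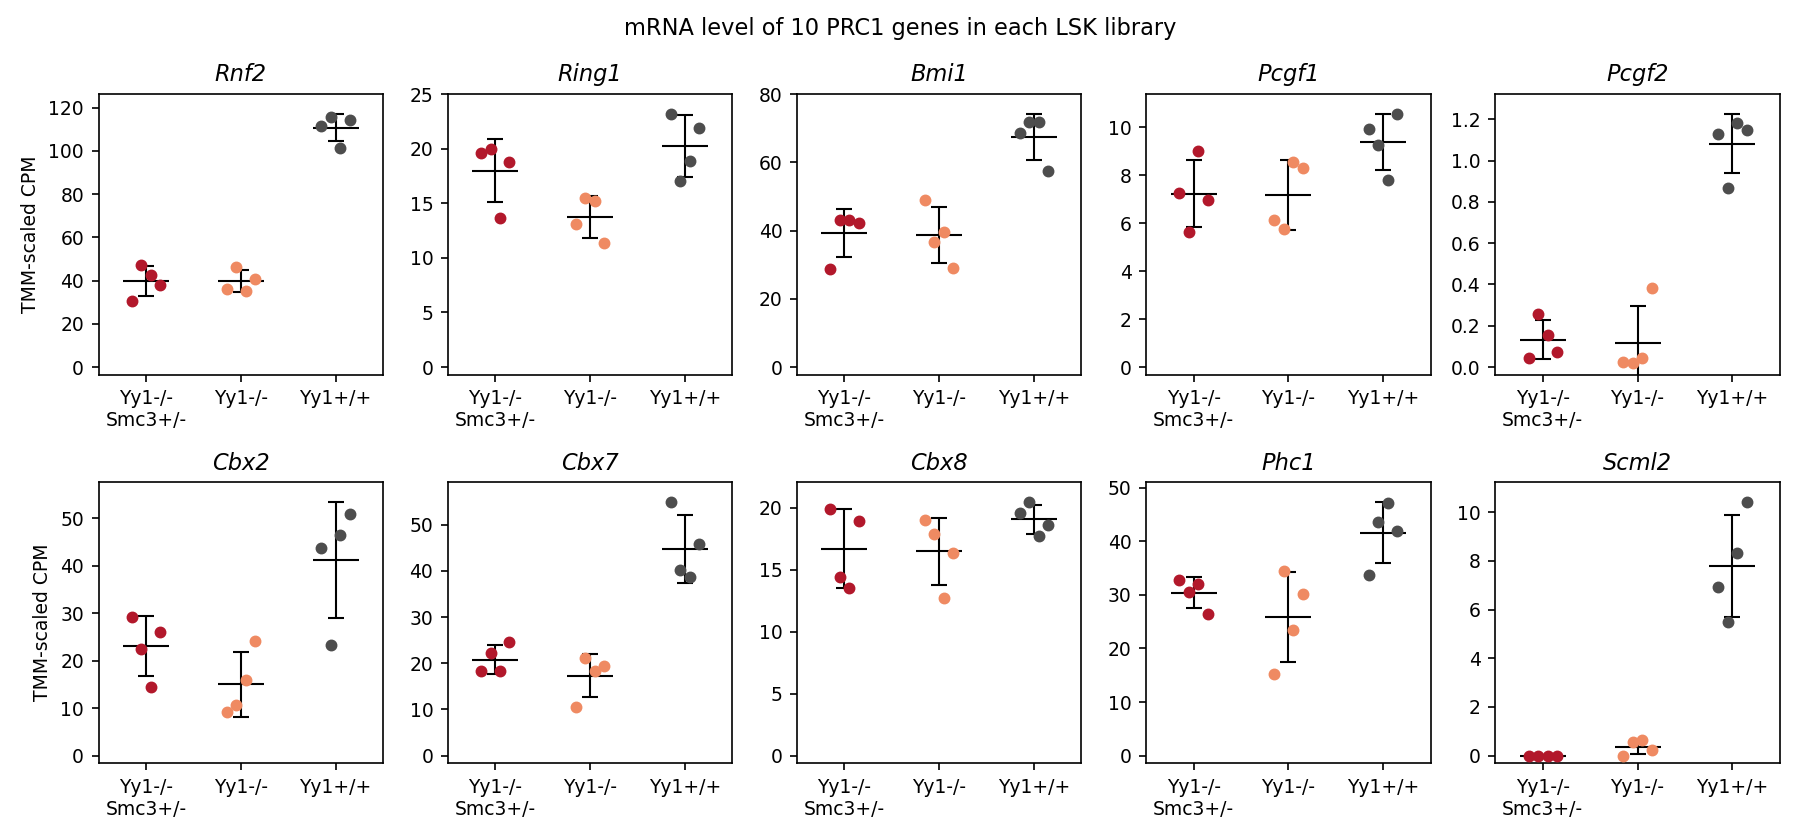
Level of each of the 10 PRC1 genes in TMM-scaled CPM (vertical axis, a scale per gene) in every library of the 3 genotypes (points), with the group mean and SD (bars, n = 4 each). Rnf2 lay at 30.8 to 47.3 CPM in the libraries labelled Yy1-/- Smc3+/- and at 35.4 to 46.5 CPM in Yy1-/- libraries, below its 101 to 116 CPM in Yy1+/+ libraries, while the groups of Cbx8 and Pcgf1 overlap.

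Because YY1 binds DNA, the promoters of the 10 genes were searched for AANATGGC, the core of the YY1 consensus, on both strands from 250 bases before to 50 bases after the RefSeq start (build GRCm38.p6). A RefSeq promoter was at hand for 8 of the 10 genes, all but Pcgf1 and Cbx2, and 3 of those 8 held the motif, against 6.05% of 32851 promoters of the same length. The motif lay 170 bases before the start in Bmi1, 89 bases before it in Pcgf2 and 24 bases after it in Scml2, and the promoters of Rnf2, Ring1, Cbx7, Cbx8 and Phc1 held no match in this window. A match is a stretch of letters and not a measured binding site. Bmi1, Pcgf2 and Scml2 fell in both comparisons with Yy1+/+, but so did Rnf2 and Cbx7, which held no match. The part of YY1 binding in these falls was not tested. The 3 stretches with the motif are shown. Each is written 5′ to 3′ on the strand of its gene, with the motif or its reverse complement in capitals. Those of Bmi1 (chr2:18676768-18677017, plus strand) and Pcgf2 (chr11:97699649-97699898, minus strand, inside the annotated gene span of Pcgf2) are the 250 bases upstream, and that of Scml2 (chrX:161162762-161162791, plus strand) is 30 bases around the match. The RefSeq starts of Scml2 and Cbx7 also lie well inside their annotated gene spans, so their windows are not at the outer start of those spans.
Bmi1: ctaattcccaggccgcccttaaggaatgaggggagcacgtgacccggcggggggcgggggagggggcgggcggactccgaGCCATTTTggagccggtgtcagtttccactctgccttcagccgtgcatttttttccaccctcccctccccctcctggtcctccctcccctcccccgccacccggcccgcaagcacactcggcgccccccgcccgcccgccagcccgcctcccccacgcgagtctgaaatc
Pcgf2: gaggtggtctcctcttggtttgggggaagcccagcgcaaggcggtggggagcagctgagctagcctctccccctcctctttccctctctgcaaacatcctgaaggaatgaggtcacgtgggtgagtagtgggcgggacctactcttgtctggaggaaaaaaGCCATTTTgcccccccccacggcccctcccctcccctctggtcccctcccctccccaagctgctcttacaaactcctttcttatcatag
Scml2: gcggcttctcaAAAATGGCggctgcaatgt

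Of the ligase genes, Rnf2 (ENSMUSG00000026484.13, chr1:151458004-151500955, minus strand) encodes RING1B, the main H2A ubiquitin ligase in most tissues. Its level was 30.8, 47.3, 42.5 and 38.0 CPM in the libraries labelled Yy1-/- Smc3+/-, and 36.3, 46.5, 35.4 and 40.6 CPM in Yy1-/- libraries, against 112, 116, 101 and 114 CPM in Yy1+/+ libraries. Every deleted library lay below every Yy1+/+ library, at a mean of 35.8% of the Yy1+/+ level in each of the 2 groups. Rnf2 fell in the libraries labelled Yy1-/- Smc3+/- (log2 fold change -1.48 with standard error 0.15, edgeR adjusted p = 2.66e-05) and in Yy1-/- libraries (-1.48 with standard error 0.15, edgeR adjusted p = 2.53e-05). Rnf2 overlaps Trmt1l, a gene on the other strand, by 158 bases, and the library kit does not mark strand. Trmt1l fell as well, at log2 fold changes of -0.80 in the libraries labelled Yy1-/- Smc3+/- and -0.61 in Yy1-/- libraries (edgeR adjusted p = 0.00151 and 0.00663), so reads from the shared stretch cannot be told apart.

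Ring1 (ENSMUSG00000024325.8, chr17:34020792-34024680, minus strand) encodes RING1A, which can stand in for RING1B. Its level was 19.6, 19.9, 13.7 and 18.8 CPM in the libraries labelled Yy1-/- Smc3+/-, and 13.1, 15.5, 15.2 and 11.4 CPM in Yy1-/- libraries, against 23.2, 17.0, 18.9 and 21.9 CPM in Yy1+/+ libraries. The Yy1-/- libraries all lay below Yy1+/+, whereas the libraries labelled Yy1-/- Smc3+/- overlapped with them. Ring1 fell in Yy1-/- libraries (log2 fold change -0.55 with standard error 0.19, edgeR adjusted p = 0.0356). It did not pass the threshold in the libraries labelled Yy1-/- Smc3+/- (-0.17, 95% interval -0.57 to 0.23, edgeR adjusted p = 0.533). The difference between the 2 deleted groups was itself not past the threshold (0.38, 95% interval -0.02 to 0.79, edgeR adjusted p = 0.76). The Ring1 call in Yy1-/- libraries did not hold in 6 of 19 alternatives, in which the log2 fold change was still -0.48 to -0.56. Among them were the fits without Yy1+/+ replicate 1 or 4 (adjusted p = 0.100 and 0.0869), without Yy1-/- replicate 1 or 4 (0.0594 and 0.0739), and the fit without the 3 libraries with most residual Yy1 (0.091).

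PCGF proteins define which kind of PRC1 a RING protein enters. Bmi1 (Pcgf4; ENSMUSG00000026739.13, chr2:18677018-18686629, plus strand), the PCGF subunit of canonical PRC1 that blood stem cells need for self-renewal, was at 28.7, 43.1, 43.2 and 42.2 CPM in the libraries labelled Yy1-/- Smc3+/-, and at 49.0, 36.8, 39.6 and 29.2 CPM in Yy1-/- libraries, against 68.5, 71.7, 71.9 and 57.4 CPM in Yy1+/+ libraries. All deleted libraries lay below the lowest Yy1+/+ library, with means at 58.3% and 57.3% of the Yy1+/+ level in the libraries labelled Yy1-/- Smc3+/- and in Yy1-/- libraries. Bmi1 fell in the libraries labelled Yy1-/- Smc3+/- (log2 fold change -0.78 with standard error 0.18, edgeR adjusted p = 0.00607) and in Yy1-/- libraries (-0.80 with standard error 0.18, edgeR adjusted p = 0.00421). Commd3, a gene on the same strand that ends 786 bases before Bmi1, did not fall with it. Its log2 fold change was 0.22 in the libraries labelled Yy1-/- Smc3+/- (edgeR adjusted p = 0.325) and it rose by 0.49 on the log2 scale in Yy1-/- libraries (edgeR adjusted p = 0.0285).

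Pcgf2 (ENSMUSG00000018537.16, chr11:97688823-97700497, minus strand) encodes MEL18, the paralog of BMI1 in canonical PRC1, and was the least abundant of the 10 genes in Yy1+/+ cells. Its level was 0.0441, 0.257, 0.155 and 0.0745 CPM in the libraries labelled Yy1-/- Smc3+/-, and 0.0254, 0.0199, 0.0449 and 0.382 CPM in Yy1-/- libraries, against 1.13, 0.869, 1.18 and 1.15 CPM in Yy1+/+ libraries. These are 2 to 11 counts and 1 to 16 counts per deleted library in the same order of groups, against 51 to 60 counts per Yy1+/+ library. No deleted library reached the Yy1+/+ range. Pcgf2 fell in the libraries labelled Yy1-/- Smc3+/- (log2 fold change -3.0 with standard error 0.62, edgeR adjusted p = 0.00107) and in Yy1-/- libraries (-3.20 with standard error 0.63, edgeR adjusted p = 0.000625). Yy1-/- replicate 4, with 16 of its group's counts for Pcgf2 and also the most residual Yy1, decides the size of the Yy1-/- value. This value was -5.07 without it and -5.46 without the 3 libraries with most residual Yy1, which leaves only Yy1-/- replicates 1 and 2.

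Pcgf1 (ENSMUSG00000069678.10, chr6:83077869-83080855, plus strand) belongs to the variant PRC1 that carries KDM2B and BCOR. It was at 7.28, 5.64, 9.03 and 6.98 CPM in the libraries labelled Yy1-/- Smc3+/-, and at 6.13, 5.74, 8.55 and 8.31 CPM in Yy1-/- libraries, against 9.94, 9.27, 7.82 and 10.5 CPM in Yy1+/+ libraries. The groups overlapped. Its log2 fold change was -0.38 in the libraries labelled Yy1-/- Smc3+/- (95% interval -0.88 to 0.12, edgeR adjusted p = 0.234) and -0.39 in Yy1-/- libraries (95% interval -0.88 to 0.11, edgeR adjusted p = 0.206). On log2(TPM + 1) with limma, the Yy1-/- value was -0.66 and passed the threshold (adjusted p = 0.0232). Without the 3 libraries with most residual Yy1 it was -0.70 and did not (edgeR adjusted p = 0.0754).

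Of the CBX readers, Cbx7 (ENSMUSG00000053411.16, chr15:79915807-79971119, minus strand) encodes the chromodomain protein associated with stem cell self-renewal. Its level was 18.3, 22.1, 18.3 and 24.5 CPM in the libraries labelled Yy1-/- Smc3+/-, and 10.5, 21.1, 18.4 and 19.3 CPM in Yy1-/- libraries, against 54.9, 40.1, 38.6 and 45.7 CPM in Yy1+/+ libraries. No deleted library reached the Yy1+/+ range. Cbx7 fell in the libraries labelled Yy1-/- Smc3+/- (log2 fold change -1.11 with standard error 0.21, edgeR adjusted p = 0.00195) and in Yy1-/- libraries (-1.37 with standard error 0.22, edgeR adjusted p = 0.000445). Cbx7 overlaps Apobec3 on the other strand by 100 bases. Apobec3 had log2 fold changes of 0.49 in the libraries labelled Yy1-/- Smc3+/- and 0.36 in Yy1-/- libraries, neither past the threshold (edgeR adjusted p = 0.0753 and 0.166).

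Cbx2 (ENSMUSG00000025577.7, chr11:119022962-119031270, plus strand) encodes a CBX protein whose disordered stretch compacts chromatin. Its level was 29.1, 22.5, 14.5 and 26.1 CPM in the libraries labelled Yy1-/- Smc3+/-, and 9.10, 10.7, 15.9 and 24.3 CPM in Yy1-/- libraries, against 43.8, 23.3, 46.6 and 50.9 CPM in Yy1+/+ libraries. Yy1+/+ replicate 2, at 23.3 CPM, lay apart from the other Yy1+/+ libraries and inside both deleted groups. Cbx2 fell in Yy1-/- libraries (log2 fold change -1.46 with standard error 0.33, edgeR adjusted p = 0.00447). The size of the Cbx2 fall there depended on the libraries. It was -1.31 without Yy1-/- replicate 1, -1.81 without Yy1-/- replicate 4 and -2.08 without the 3 libraries with most residual Yy1, which leaves only Yy1-/- replicates 1 and 2. In the libraries labelled Yy1-/- Smc3+/- its log2 fold change was -0.83 ± 0.32 SE and missed the threshold (edgeR adjusted p = 0.0683), but it passed without Yy1+/+ replicate 2 (-1.03, edgeR adjusted p = 0.025), with DESeq2 (adjusted p = 0.0394) and with only these 2 genotypes in the fit (edgeR adjusted p = 0.0343). The difference between the 2 deleted groups was 0.62 on the log2 scale (95% interval -0.09 to 1.34, edgeR adjusted p = 0.772).

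Cbx8 (ENSMUSG00000025578.9, chr11:119036305-119040969, minus strand), the neighbour of Cbx2 on chromosome 11, encodes another chromodomain reader. It was at 19.9, 14.4, 13.5 and 18.9 CPM in the libraries labelled Yy1-/- Smc3+/-, and at 19, 17.8, 12.7 and 16.3 CPM in Yy1-/- libraries, against 19.6, 20.4, 17.7 and 18.6 CPM in Yy1+/+ libraries. Its groups overlapped, and it did not pass the threshold in the libraries labelled Yy1-/- Smc3+/- (log2 fold change -0.19, 95% interval -0.59 to 0.21, edgeR adjusted p = 0.468) or in Yy1-/- libraries (-0.21, 95% interval -0.62 to 0.19, edgeR adjusted p = 0.399). These intervals leave room for a fall to about the size seen in Ring1 but not for one of the size seen in Cbx7.

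Phc1 (ENSMUSG00000040669.14, chr6:122317731-122340561, minus strand) encodes a Polyhomeotic protein, whose SAM domain links PRC1 complexes together. Its level was 32.9, 30.5, 31.9 and 26.3 CPM in the libraries labelled Yy1-/- Smc3+/-, and 15.2, 34.5, 23.5 and 30.2 CPM in Yy1-/- libraries, against 33.7, 43.7, 47.1 and 41.9 CPM in Yy1+/+ libraries. The libraries labelled Yy1-/- Smc3+/- all lay below Yy1+/+, although the highest was close to the lowest Yy1+/+ library, and Yy1-/- replicate 2 lay above that library. Phc1 fell in Yy1-/- libraries (log2 fold change -0.68 with standard error 0.22, edgeR adjusted p = 0.0264) and did not pass the threshold in the libraries labelled Yy1-/- Smc3+/- (-0.45, 95% interval -0.92 to 0.02, edgeR adjusted p = 0.134). With only the 2 genotypes in the fit these calls changed places, at adjusted p = 0.0598 in Yy1-/- libraries and 0.03 in the libraries labelled Yy1-/- Smc3+/-. The Yy1-/- call also did not hold without Yy1+/+ replicate 3 or 4 or Yy1-/- replicate 3 (edgeR adjusted p = 0.0679, 0.0541 and 0.0544) or without the 3 libraries with most residual Yy1 (0.0814), at log2 fold changes of -0.62 to -0.77. M6pr, which lies 50 bases away on the other strand, had log2 fold changes of -0.14 in the libraries labelled Yy1-/- Smc3+/- and 0.05 in Yy1-/- libraries, neither past the threshold.

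Scml2 (ENSMUSG00000000037.17, chrX:161117193-161258213, plus strand) encodes an SCM-family protein that joins PRC1 through its SAM domain, and showed the lowest share of its Yy1+/+ level among the 10 genes. Its level was 0 CPM in all 4 libraries labelled Yy1-/- Smc3+/-, and 0, 0.538, 0.651 and 0.215 CPM in Yy1-/- libraries, against 6.91, 5.50, 8.31 and 10.4 CPM in Yy1+/+ libraries. These are 0 counts, then 0, 27, 29 and 9 counts, against 348 to 462 counts per Yy1+/+ library. In the libraries labelled Yy1-/- Smc3+/- it was at least 433-fold lower than in Yy1+/+, taking the limit that a count of 0 allows as 3 counts over the group (0.0180 CPM, counting error only), with edgeR adjusted p = 6.14e-05. In Yy1-/- libraries it fell to 4.51% of the Yy1+/+ level (log2 fold change -4.39 with standard error 0.52, edgeR adjusted p = 0.000154). Between the deleted groups, the Yy1-/- mean of 0.351 ± 0.298 CPM was 19.5-fold above the same limit of 0.0180 CPM, which leaves out the spread between libraries. The difference was not called by edgeR (adjusted p = 0.756) but was by DESeq2 (adjusted p = 0.0006), while Yy1-/- replicate 1 had 0 counts as well.

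Scml2 is X-linked, and libraries differed in their sex-linked transcripts. Ddx3y, on the Y chromosome, was at 8.66 to 25.4 CPM in the 4 libraries labelled Yy1-/- Smc3+/-, at 8.62 CPM in Yy1-/- replicate 3 and 0 in the other Yy1-/- libraries, and at 35.1 and 37.9 CPM in Yy1+/+ replicates 1 and 4 and 0 in Yy1+/+ replicates 2 and 3. Xist, the RNA of the inactive X, was at 0, 3.58, 107 and 0 CPM in the libraries labelled Yy1-/- Smc3+/-, and at 33.9 to 92.8 CPM in Yy1-/- libraries, against 31.2 to 113 CPM in Yy1+/+ libraries. Some libraries held both transcripts. Among libraries with no Ddx3y count, Scml2 was at 0, 0.538 and 0.215 CPM in Yy1-/- libraries, against 5.50 and 8.31 CPM in Yy1+/+ libraries. This is a description of 5 libraries, and the part of sex in any of the values was not tested.

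**Figure D2:**
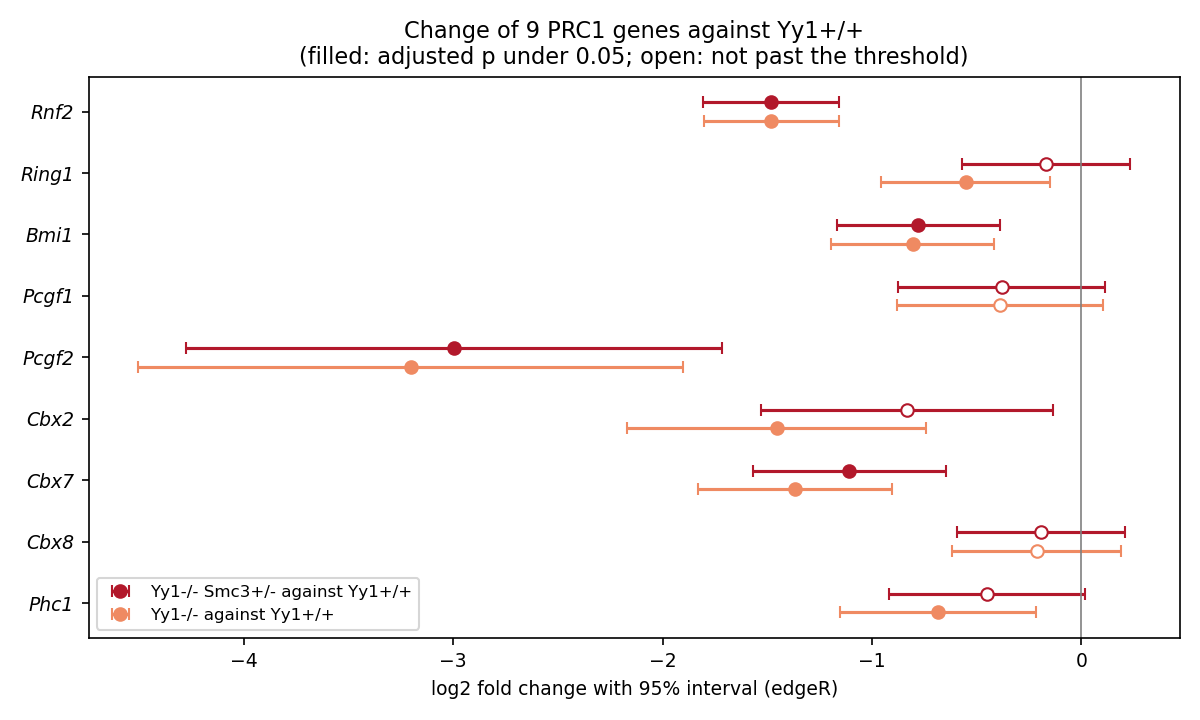
Log2 fold change from edgeR (horizontal axis) with its 95% interval for 9 of the 10 PRC1 genes in the libraries labelled Yy1-/- Smc3+/- (dark) and in Yy1-/- libraries (light), each against Yy1+/+. Filled points passed adjusted p under 0.05. Rnf2 sits at -1.48 in both comparisons and Pcgf2 at -3.0 and -3.20, while Pcgf1 and Cbx8 are open in both. Scml2 is left out because its fitted value against a group at 0 is no bound.

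The libraries labelled Yy1-/- Smc3+/- were next set against Yy1-/- libraries. By label these groups differ in the Smc3 allele, but they were unlike in other ways too. Residual Yy1 averaged 1.74 ± 1.81 and 4.65 ± 5.43 CPM in that order, and Ddx3y 19.5 ± 7.84 and 2.15 ± 4.31 CPM (SD, n = 4 each). The part of the Smc3 allele cannot be told apart from these. None of the 10 PRC1 genes passed edgeR's threshold in either direction, where 0.036% of all tested genes changed (6 genes, all higher, with 1076 genes at an unadjusted p under 0.05). The direction was not stable over all genes: DESeq2 called 20 lower and 35 higher, among them 1 of the 10, Scml2, and edgeR without the 3 libraries with most residual Yy1 called 277 lower and 34 higher, with none of the 10. That last fit keeps only Yy1-/- replicates 1 and 2, the Yy1-/- libraries high in Csf1r and Cd68. Apart from Scml2, the largest fitted differences were 0.62 for Cbx2 and 0.38 for Ring1, both higher in the libraries labelled Yy1-/- Smc3+/-. For Rnf2 the difference was -0.0017 with a 95% interval of -0.32 to 0.32, and for Bmi1 it was 0.025 with an interval of -0.37 to 0.42. For Pcgf2, at 0.21 with an interval of -1.91 to 2.32, even a large difference in either direction was not detectable at this depth.

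Levels of different genes were compared as TPM (transcript abundance scaled to a fixed total), which divide by length. In Yy1+/+ cells Rnf2 led at 53.6 ± 4.68 TPM (SD, n = 4), and its range did not overlap with that of Bmi1, next at 31.4 ± 3.98 TPM. Cbx7 followed at 29.8 TPM, Pcgf1 at 22.2, Cbx2 at 16.7, Phc1 at 16.6 and Ring1 at 16.4 TPM, each overlapping with its neighbours in this order. Cbx8 at 8.03, Scml2 at 2.71 and Pcgf2 at 1.14 TPM were each set apart from the gene directly above. Cbx8, at 7.23 to 8.52 TPM, still overlapped with Cbx2, which was at 7.72 TPM in Yy1+/+ replicate 2. In deleted cells the most abundant genes lay closer together. Rnf2 led at 17.0 ± 3.61 TPM in the libraries labelled Yy1-/- Smc3+/- and at 16.0 ± 2.93 TPM in Yy1-/- libraries, but there it overlapped with Bmi1, at 16.6 ± 3.34 and 14.9 ± 2.03 TPM. From Rnf2 down to the eighth gene, every gene overlapped with the next in both deleted groups. The summed level of the 10 genes was 98.3 ± 7.73 TPM in the libraries labelled Yy1-/- Smc3+/- and 84.1 ± 13.1 TPM in Yy1-/- libraries, against 198 ± 23.8 TPM in Yy1+/+ libraries (SD, n = 4 each), with no overlap between either deleted group and Yy1+/+. On log2(TPM + 1) the median of all genes was itself shifted, by -0.111 in the libraries labelled Yy1-/- Smc3+/- and -0.177 in Yy1-/- libraries, so TPM values run lower in deleted cells for many genes.

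Paralogs that fill the same place in the complex were compared as shares of their summed TPM within a library, which that shift does not touch. Rnf2 made up 57.0 ± 6.95% of Ring1 and Rnf2 together in the libraries labelled Yy1-/- Smc3+/- and 63.5 ± 4.10% in Yy1-/- libraries, against 76.8 ± 2.54% in Yy1+/+ libraries (SD, n = 4 each). The Rnf2 share was lower in 4 of 4 libraries of each deleted group than in any Yy1+/+ library. Among the 6 Pcgf genes, Bmi1 held 12.8 ± 2.26% in the libraries labelled Yy1-/- Smc3+/- and 12.6 ± 2.83% in Yy1-/- libraries, against 20.5 ± 2.82% in Yy1+/+ libraries. Pcgf5, a subunit of variant PRC1, was the most abundant Pcgf gene everywhere, at 49.6 ± 1.43%, 51.8 ± 3.66% and 40.9 ± 2.40% in the libraries labelled Yy1-/- Smc3+/-, in Yy1-/- and in Yy1+/+ libraries. Its own level did not pass the threshold, at 99.4 ± 8.67, 98.6 ± 11.7 and 89.0 ± 10.5 CPM in the same order (n = 4 each). The 6 Pcgf genes together summed to 129.8 ± 5.39, 120.4 ± 13.4 and 154.2 ± 15.4 TPM in that order.

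Among the 5 Polycomb Cbx genes, Cbx8 held 12.2 ± 1.5% in the libraries labelled Yy1-/- Smc3+/- and 15.5 ± 6.16% in Yy1-/- libraries, against 7.49 ± 1.55% in Yy1+/+ libraries (SD, n = 4 each). The 5 genes together summed to 51.3 ± 9.83 TPM in the libraries labelled Yy1-/- Smc3+/- and 40.2 ± 13.2 TPM in Yy1-/- libraries, against 111 ± 25.1 TPM in Yy1+/+ libraries. Cbx7 held 23.6%, 25.7% and 27.5% and Cbx2 15.5%, 12.1% and 14.5% in the libraries labelled Yy1-/- Smc3+/-, in Yy1-/- and in Yy1+/+ libraries, which overlap. Phc1 made up 11.7 ± 2.10% and 9.83 ± 2.58% of the 3 Phc genes in the libraries labelled Yy1-/- Smc3+/- and in Yy1-/- libraries, against 17.4 ± 1.35% in Yy1+/+ libraries, and Phc2 was the most abundant Phc gene in every library. Exact two-sided permutation tests gave p = 0.0286, the smallest that 4 against 4 libraries allow, for 9 of the 24 comparisons of member shares. After Benjamini-Hochberg adjustment over the 24 comparisons these came to 0.0762, so no share passed the threshold.

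**Figure D3:**
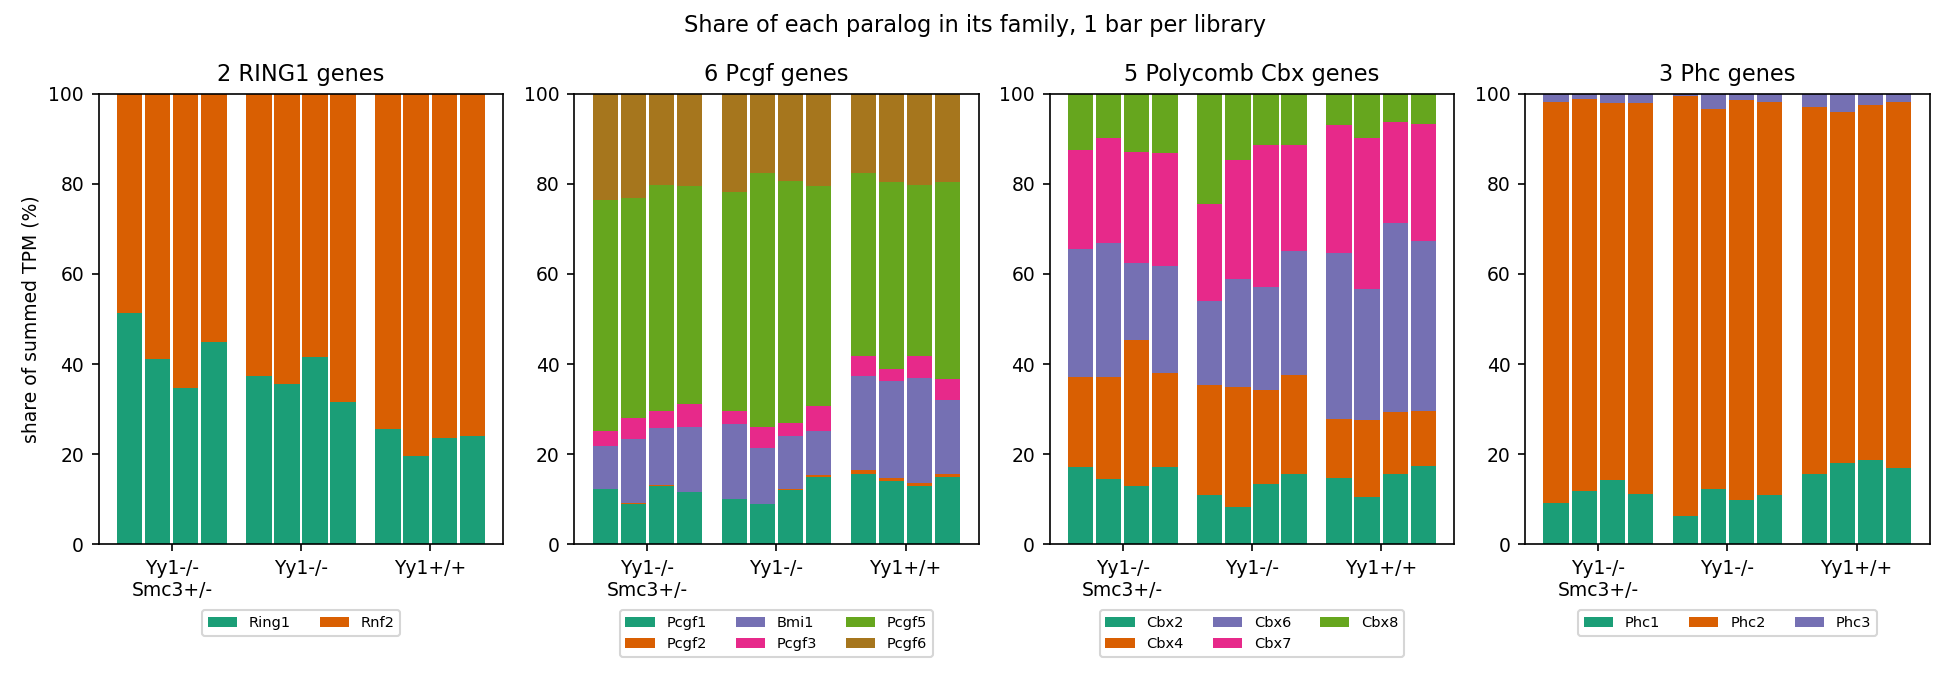
Share of summed TPM (vertical axis, in percent) that each paralog holds in its family, with 1 bar per library grouped by genotype. The Rnf2 part of the ligase bars is smaller in every library labelled Yy1-/- Smc3+/- and every Yy1-/- library, at means of 57.0% and 63.5%, than in the Yy1+/+ libraries at 76.8%. Pcgf5 is the largest part of every Pcgf bar and Phc2 of every Phc bar.

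Of 30 other PRC1 genes, 6 fell and 2 rose in the libraries labelled Yy1-/- Smc3+/-, and 10 fell and 2 rose in Yy1-/- libraries. Over all tested genes 16.7% fell and 13.1% rose where the Smc3 allele is labelled, and 18.8% fell and 16.3% rose in Yy1-/- libraries, so the first count is near the background. The median log2 fold changes of these 30 genes were -0.18 and -0.39 in that order. E2f6, a DNA-binding subunit of variant PRC1, averaged 52.6 ± 5.95 CPM in the libraries labelled Yy1-/- Smc3+/- and 45.9 ± 3.23 CPM in Yy1-/- libraries, against 103 ± 6.82 CPM in Yy1+/+ libraries (SD, n = 4 each), a fall in both (edgeR adjusted p = 0.000111 and 3.18e-05). Scmh1, an SCM-family gene like Scml2, averaged 16.5 ± 6.78 and 14.0 ± 4.97 CPM against 58.3 ± 2.29 CPM in the same order, and fell in both (edgeR adjusted p = 0.000897 and 0.000381). Cbx6 averaged 47.1 ± 12.4 and 35.9 ± 11.7 CPM against 126 ± 29.1 CPM, and fell in both (edgeR adjusted p = 0.00214 and 0.000405). The 2 genes that rose were the same in both comparisons. Tfdp1, the dimer partner of E2F proteins, averaged 519 ± 22.9 CPM in the libraries labelled Yy1-/- Smc3+/- and 518 ± 50.4 CPM in Yy1-/- libraries, against 319 ± 17.8 CPM in Yy1+/+ libraries. Csnk2b, the regulatory subunit of casein kinase 2, averaged 81.8 ± 10.9 and 91.4 ± 10.4 CPM against 53.4 ± 7.78 CPM in that order.

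PRC2 writes the histone H3 methyl mark that CBX proteins read. Of its 12 genes, 3 fell and 1 rose in each comparison with Yy1+/+, which is near the 29.9% and 35.2% of all genes that changed in the libraries labelled Yy1-/- Smc3+/- and in Yy1-/- libraries and is no result about PRC2 as a group. The median log2 fold changes were 0.13 in the libraries labelled Yy1-/- Smc3+/- and 0.03 in Yy1-/- libraries. The 2 alternative methyltransferases moved in opposite directions. Ezh2, the form that dominates in dividing cells, averaged 169.5 ± 8.46 CPM in the libraries labelled Yy1-/- Smc3+/- and 160.2 ± 8.82 CPM in Yy1-/- libraries, against 106 ± 20.7 CPM in Yy1+/+ libraries (SD, n = 4 each), and rose in both (edgeR adjusted p = 0.00255 and 0.00463). Ezh1 averaged 58.4 ± 5.47 and 58.3 ± 12.6 CPM against 84.7 ± 4.33 CPM in the same order, and fell in both (edgeR adjusted p = 0.0159 and 0.0132). The accessory genes Phf1 and Phf19, whose proteins help PRC2 bind chromatin, also fell in both. Phf19 averaged 1.89 ± 0.91 and 3.94 ± 2.11 CPM against 11.8 ± 3.0 CPM, and Phf1 averaged 12.2 ± 1.71 and 11 ± 3.24 CPM against 24.2 ± 6.16 CPM.

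**Figure D4:**
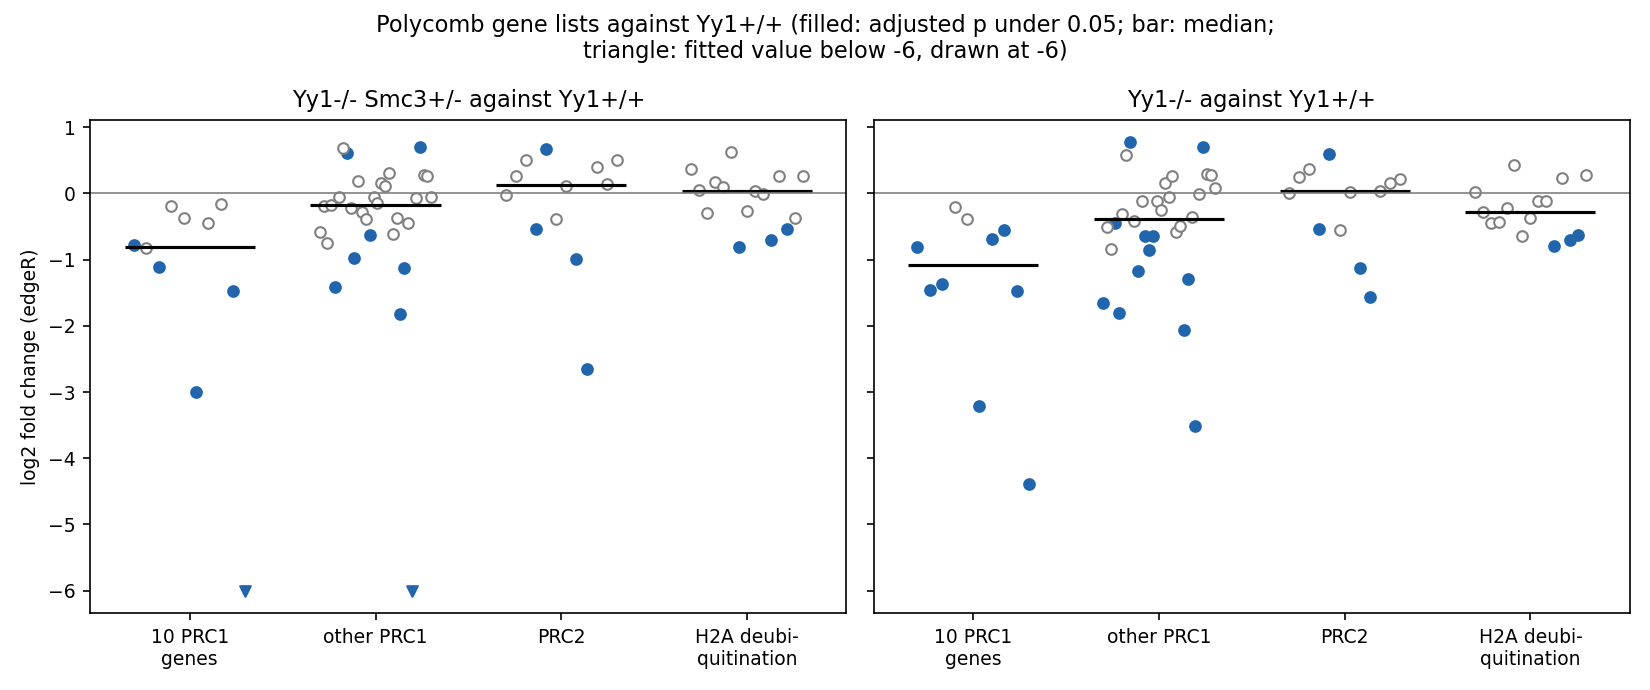
Log2 fold change from edgeR (vertical axis) of every tested gene of 4 Polycomb lists, in the libraries labelled Yy1-/- Smc3+/- (left) and in Yy1-/- libraries (right), each against Yy1+/+. Filled points passed adjusted p under 0.05, bars are list medians, and triangles mark fitted values below -6 drawn at -6. The 10 PRC1 genes have medians of -0.81 and -1.09, and the PRC2 genes have medians of 0.13 and 0.03.

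Known PRC1 targets did not move as one group. Of 16 such genes 9 passed the filter on low counts. In the libraries labelled Yy1-/- Smc3+/-, 2 fell and 2 rose, and in Yy1-/- libraries 4 fell and 1 rose, with median log2 fold changes of -0.34 and -0.47 over the 9 genes. Over all genes 29.9% and 35.2% changed in the same order. Cdkn2a, which encodes cell-cycle inhibitors and is the classical target of BMI1, had 8, 1, 7 and 5 counts in the libraries labelled Yy1-/- Smc3+/-, and 25, 26, 15 and 15 counts in Yy1-/- libraries, against 0 counts in all 4 Yy1+/+ libraries. That makes it at least 8.73-fold higher in the libraries labelled Yy1-/- Smc3+/- (0.126 ± 0.073 CPM) and at least 31.9-fold higher in Yy1-/- libraries (0.462 ± 0.141 CPM), taking 3 counts over the Yy1+/+ group (0.0145 CPM) as the limit, with edgeR adjusted p = 0.0154 and 0.000202. Between the deleted groups its log2 fold change was -1.85 and was not called (edgeR adjusted p = 0.718). Its level stayed low in both. Only Yy1-/- libraries held 10 or more counts, so Cdkn2a passed the filter through the group where it is highest. The neighbouring Cdkn2b averaged 0.497 ± 0.357 and 0.465 ± 0.284 CPM against 0.109 ± 0.143 CPM, and did not pass the threshold (edgeR adjusted p = 0.0778 and 0.0796).

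The Hox targets that passed the threshold moved the other way. Hoxa9, a homeobox gene of immature blood cells, was at 50.7, 50.2, 61.2 and 51.4 CPM in the libraries labelled Yy1-/- Smc3+/-, and at 34.3, 36.2, 52.1 and 42.7 CPM in Yy1-/- libraries, against 99.6, 184, 80.8 and 109 CPM in Yy1+/+ libraries. It fell in both (edgeR adjusted p = 0.00233 and 0.000347), and no deleted library reached the Yy1+/+ range. Hoxc6, at 0.0851 ± 0.095 and 0.0845 ± 0.063 CPM against 0.456 ± 0.0296 CPM, also fell in both (edgeR adjusted p = 0.0118 and 0.00675). The Hoxc6 means in deleted cells are close to what 3 counts make in a deleted library (0.0598 to 0.0776 CPM), so few reads carry this fall. Hoxc6 passed the filter through the Yy1+/+ libraries, where it is high. Ebf1, a B-lineage transcription factor, averaged 2.24 ± 0.99 CPM in the libraries labelled Yy1-/- Smc3+/- and 0.50 ± 0.655 CPM in Yy1-/- libraries, against 0.347 ± 0.201 CPM in Yy1+/+ libraries. Ebf1 rose in the libraries labelled Yy1-/- Smc3+/- (edgeR adjusted p = 0.00869) and did not pass the threshold in Yy1-/- libraries (adjusted p = 0.55), and the difference between the deleted groups was not past it either (adjusted p = 0.746). Ebf1 is also 1 of 6 B cell markers, of which 5 were tested. It was itself 1 of the 2 that rose in the libraries labelled Yy1-/- Smc3+/-. The part of B-lineage RNA in its value was not tested.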

How the data were processed

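Total RNA from sorted LSK cells was made into libraries with a full-length low-input kit that does not mark strand, per the labels' protocols. Reads were aligned with STAR 2.5.2b and quantified with RSEM 1.3.0 against mm10, per the submitters' processing notes; the annotation release is not given in the sources used here. The deposited tables hold, per the file headers, RSEM expected counts, TPM and FPKM per gene (FPKM was not used) and transcript lengths. Expected counts were rounded to whole numbers; TPM divides by effective length and moves with the make-up of a library. Symbols and positions came from GENCODE M21 on GRCm38; 55094 of 55487 identifiers matched with their version, 300 without it, and 93 did not match.

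Counts were tested with edgeR 4.0.16 (R 4.3.3): TMM factors, filterByExpr (minimum count 10, total 15), 1 model over 12 libraries with a term per genotype, and Benjamini-Hochberg adjustment over 16649 genes. CPM are TMM-scaled over the genes tested. The newer quasi-likelihood method (legacy off, not the package default) was chosen after both had been run, to match earlier work on these data; in the libraries labelled Yy1-/- Smc3+/- the older method gave 4117 changed genes (4975 here), and in Yy1-/- libraries 5015 (5854 here). Shares were tested by exact permutation. DESeq2 1.42.0 and limma 3.58.1 (on log2(TPM + 1)) were alternatives, and the count fits were tested on simulated data. The members and lists were chosen with earlier results of these data known. Beside the members, the text names up to 4 genes per list with the smallest p among those changed, every gene of a direction with 3 or fewer, the targeted genes and the sort markers. Replicates are numbered in accession order. Promoter sequences are from RefSeq (GRCm38.p6); protein sequences are not shown.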

Additional observations from a re-analysis of the deposited data

Results flagged for a closer look

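Among 54 groups of 4 values examined (each member's CPM, and the shares, by genotype), 2 held a library set far apart from the other 3; chance gives about 1 in 20 such groups. Bmi1 was at 28.7 CPM in replicate 1 of the libraries labelled Yy1-/- Smc3+/-, below 42.2 to 43.2 CPM in the other 3. Pcgf2 was at 0.382 CPM in Yy1-/- replicate 4, above 0.0199 to 0.0449 CPM in the other 3, and this library also had the most residual Yy1 mRNA of its group (12.2 CPM); whether the 2 are linked was not tested.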

How the results depend on the processing

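Each count was recomputed under 19 alternatives per comparison, and each member value under those that tested it. Against Yy1+/+, the fitted value of every member stayed below 0 under each alternative run. The members changed numbered 6 to 9 in Yy1-/- libraries (main 8) and 4 to 7 in the libraries labelled Yy1-/- Smc3+/- (main 5), and 6 to 8 and 5 to 6 when 1 library was left out. The stricter filter (1 CPM in 4 libraries) left Pcgf2 untested, and the fit of only the 2 deleted groups left Pcgf2 and Scml2 untested. The older, the robust and the all-gene library size settings, added after the data were seen, kept 8 and 5 members changed. On log2(TPM + 1) all calls split 4327 lower and 1445 higher in Yy1-/- libraries (main 3132 and 2722) and 3480 and 1299 in the libraries labelled Yy1-/- Smc3+/- (main 2786 and 2189).

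Between the deleted groups, 6 genes changed, but 55 with DESeq2 (20 lower, 35 higher), which also called 1 member, and 311 (277 lower, 34 higher) without the 3 libraries with most residual Yy1 (5 to 7 leaving out 1 library); there the Cbx2 share differed by 6.65 percentage points, against 3.36 with all libraries. None of the reversals of sign that follow passed the threshold on either side, and the cause was not tested: Rnf2 was 0.0055 with upper-quartile factors, 0.019 with only 2 genotypes and 0.078 on log2 TPM; Pcgf1 -0.0033 with no filter; Pcgf2 -0.042 with a length offset; Bmi1 -0.18 and Cbx8 -0.065 without the 3 libraries. Leaving out 1 library gave -0.11 to 0.10 for Rnf2, -0.10 to 0.15 for Bmi1, -0.11 to 0.096 for Pcgf1, -0.37 to 2.04 for Pcgf2 and -0.094 to 0.11 for Cbx8. Shares left with fewer libraries are values without a test. No paired analysis was possible because the labels give the genotypes no shared replicate numbers.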

Other observations

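Ubiquitin on H2A is removed by deubiquitinases that work against PRC1. Of 16 genes of these enzymes and their partners 15 were tested, and 3 fell and 0 rose in each comparison with Yy1+/+, near the 16.7% and 18.8% of all genes that fell in the libraries labelled Yy1-/- Smc3+/- and in Yy1-/- libraries. Median log2 fold changes were 0.03 in the libraries labelled Yy1-/- Smc3+/- and -0.27 in Yy1-/- libraries. Ogt, the O-GlcNAc transferase that partners BAP1 complexes, averaged 136 ± 17.8 CPM in the libraries labelled Yy1-/- Smc3+/- and 129 ± 31.6 CPM in Yy1-/- libraries, against 223 ± 52.4 CPM in Yy1+/+ libraries (SD, n = 4 each; edgeR adjusted p = 0.0197 and 0.0093). Usp21, an H2A deubiquitinase, averaged 70.9 ± 4.75 and 62.9 ± 13 CPM against 102 ± 5.30 CPM in that order, and fell in both (edgeR adjusted p = 0.0171 and 0.00305). The third gene was Kdm1b in the libraries labelled Yy1-/- Smc3+/- (log2 fold change -0.81, edgeR adjusted p = 0.0211) and Usp22, of the SAGA complex, in Yy1-/- libraries (-0.62, edgeR adjusted p = 0.0113).

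Sfmbt2, an SFMBT-family Polycomb gene singled out after its values were seen, resembled Scml2 in having 0 counts in all 4 libraries labelled Yy1-/- Smc3+/-. It averaged 0.192 ± 0.324 CPM in Yy1-/- libraries, against 2.29 ± 1.21 CPM in Yy1+/+ libraries (SD, n = 4 each). It was at least 127-fold lower in the libraries labelled Yy1-/- Smc3+/- (edgeR adjusted p = 0.00279), taking 3 counts over the group as the limit, and fell in Yy1-/- libraries (log2 fold change -3.51, edgeR adjusted p = 0.00873).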
